A study of Homo sapiens with 6 samples.

Results

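CGA encodes the alpha chain of the glycoprotein hormones. The gene was taken as the row of the deposited table of normalised counts whose Ensembl identifier, ENSG00000135346, maps to the symbol CGA, and it was 1 of 26748 genes in that table. It was selected on its normalised counts and ranks in these libraries, so its levels, ranks and spread are given as a description and carry no test. The cells were M14, an established human melanoma line. Poly(A) RNA was sequenced from 3 libraries of cells attached to the dish (2D) and from 3 libraries of cells kept from attaching, which grow as floating clusters called melanospheres (3D). No treatment, genotype or time in culture was given for either group, and both groups carried the same line name. Whether replicates came from separate cultures is not stated in the labels, so p-values measure only how these libraries spread, and that spread may be technical. In such bulk RNA, fewer cells with a transcript and less of it per cell cannot be told apart.

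The glycoprotein hormones are pairs of a shared alpha chain and a hormone-specific beta chain. The same alpha chain joins the beta chains of chorionic gonadotropin (the CGB genes), luteinizing hormone (LHB), follicle-stimulating hormone (FSHB) and thyroid-stimulating hormone (TSHB), and the beta chain decides which receptor the hormone binds. CGA is normally transcribed in the pituitary gonadotropes and thyrotropes and in the placental trophoblast, where cyclic AMP, acting through protein kinase A (PKA) and the factor CREB at cyclic AMP response elements of the promoter, is a main route of its control. Free alpha chain made outside these tissues is known from many tumours.

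CGA lies on chromosome 6 at chr6:87085498-87095406 (GRCh38), on the minus strand. GENCODE 29 gives it 6 transcripts, the longest of 1010 bases, and 2284 bases of merged exons, and 0 other genes overlap it. Of the 2516 windows of 75 bases in its exons, 0 were found in another annotated gene, unlike in the CGB genes, whose exons share sequence with each other.

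Sequences from the RefSeq promoter table (GRCh38.p14) are shown because the palindrome TGACGTCA, the full cyclic AMP response element, stands out in the CGA promoter. It was found 2 times in the 250 bases before the RefSeq start site of CGA, each time inside the same unit of 18 bases. The units follow each other without a gap. The longest GENCODE transcript, of 1010 bases, begins further upstream at chr6:87095406, so both units and the TATA stretch lie within its span. Capitals mark the element, or TATAAA in the last line, and positions count from -1 at the base before the RefSeq start site.
CGA repeat unit 1, minus strand, chr6:87095235-87095252, positions -146 to -129: aaatTGACGTCAtggtaa
CGA repeat unit 2, minus strand, chr6:87095217-87095234, positions -128 to -111: aaatTGACGTCAtggtaa
CGA TATA stretch, minus strand, chr6:87095120-87095145, positions -39 to -14: actctgctggTATAAAagcaggtgag

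Both strands of the same window were searched in 35116 promoters. At least 1 TGACGTCA was present in 578 of them (1.65%), and at least 2 were present in 19 (0.0541%), CGA among these. TATAAA was present in 10.7%, the motif AGATAA, which GATA factors can bind, in 9.17%, and the E-box CANNTG in 61.8%. CGA held each of the 3. Of the 12 alpha and beta chain genes, 11 were in the table, and of the beta chain genes only CGB1 and CGB2 held TGACGTCA, 1 each, in near-identical surroundings shown here to compare them with the CGA unit.
CGB1, minus strand, chr19:49036931-49036958: ggctcatcccTGACGTCAcccagtcccc
CGB2, plus strand, chr19:49031849-49031876: ggctcaccccTGACGTCAcccagtcccc
The letters TGACGTCA were not in this window of CGB3, CGB5, CGB7, CGB8, LHB, FSHB, TSHB or GPHB5. These matches describe letters only, and binding by any factor was not measured.

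CGA was among the most abundant messages in every library. Its normalised counts were 20732, 16998 and 62030 in 2D replicates 1, 2 and 3, and 39482, 16453 and 41635 in 3D replicates 1, 2 and 3. The level was thus high in 2D replicate 3 and in 3D replicates 1 and 3, low in the other 3 libraries, and the 2 cultures overlapped. The recovered whole reads were 21753, 15923, 60337, 42553, 16973 and 40334 in the same order. As a share of all assigned reads CGA took 0.109% (95% Wilson interval 0.108% to 0.110%), 0.0941% (0.0927% to 0.0956%) and 0.338% (0.336% to 0.341%) in 2D replicates 1 to 3. In 3D replicates 1 to 3 it took 0.239% (0.237% to 0.241%), 0.0972% (0.0958% to 0.0987%) and 0.243% (0.241% to 0.246%). The intervals cover counting error only, since these were PCR-amplified reads without molecular identifiers, and they are far narrower than the distance between the high and the low libraries.

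Ranked by reads among all genes, CGA stood at 74, 92 and 6 in 2D replicates 1 to 3 and at 18, 89 and 18 in 3D replicates 1 to 3. Ranks per length use TPM, the usual length-scaled share of all transcripts, computed here from the whole reads and the merged exon length. CGA had 1753, 1590 and 5477 TPM in 2D and 3411, 1379 and 3365 TPM in 3D, which placed it at 48, 51 and 11 in 2D and at 16, 55 and 15 in 3D among protein-coding genes, a median of 32. With the length of the longest transcript of each gene in place of the merged exons, CGA moved up to 30, 33 and 1 in 2D and to 9, 37 and 10 in 3D. In 2D replicate 3 CGA was then the first of all protein-coding genes.

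**Figure D1:**
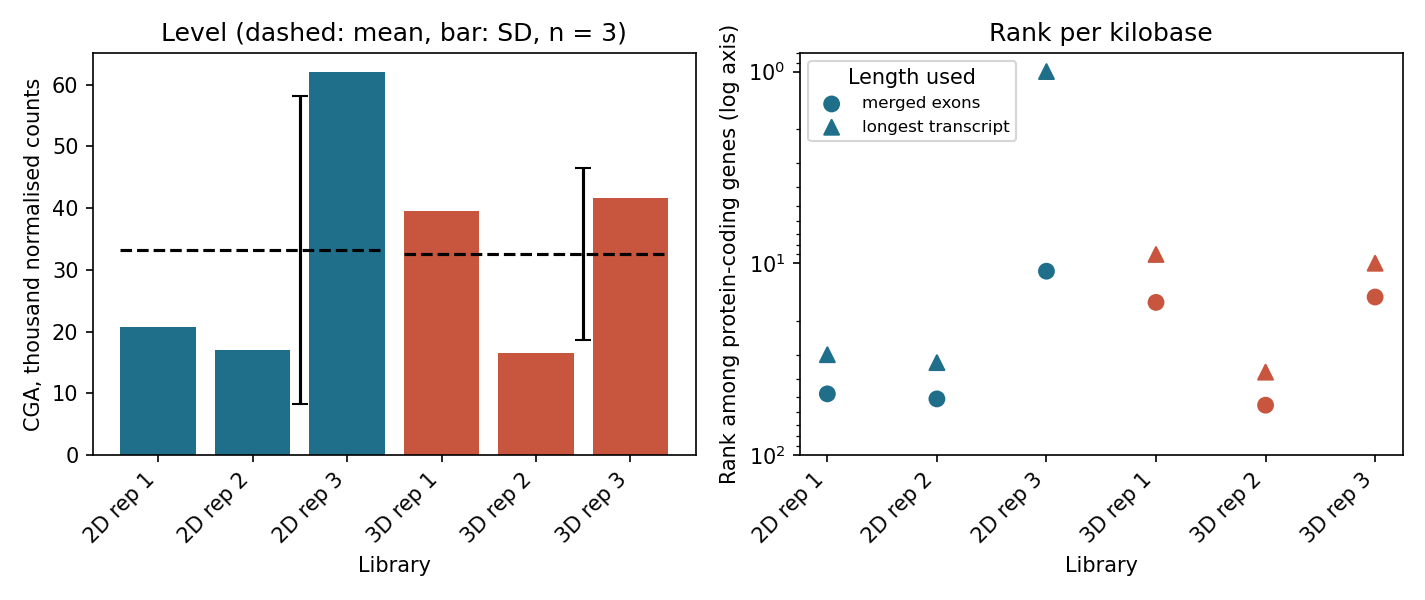
CGA in each of the 6 libraries, left as normalised counts in units of 1000 (dashed lines the culture means, bars the SD, n = 3) and right as the rank per kilobase among protein-coding genes on an inverted log axis, by merged exons (circles) or longest transcript (triangles). 2D replicate 3 and 3D replicates 1 and 3 sit at 39482 to 62030 normalised counts, and the other 3 libraries at 16453 to 20732.

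The culture means did not separate. CGA averaged 33253 ± 24992 normalised counts in 2D and 32523 ± 13959 in 3D (SD, n = 3 each), a difference of 0.10 on the log2(value + 1) scale against an SD between replicates of 1.01 in 2D and 0.75 in 3D. The highest 2D library was 3.65 times the lowest, and the highest 3D library was 2.53 times the lowest. 2D replicate 3 held 3.29 times the mean of the other 2D libraries, and 3D replicate 2 held 0.406 of the mean of the other 3D libraries. Leaving out 1 library at a time moved the difference between -0.26 and 0.68, which includes both signs. Without 2D replicate 3 and 3D replicate 2 together, the difference was 1.11, and the mean of the remaining 3D libraries was then 2.15 times that of the remaining 2D libraries. That pair was chosen after seeing the data, with CGA among the values seen, so it describes the libraries and does not test the cultures.

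The spread within a culture was wide beside that of protein-coding genes whose mean reached 1000 normalised counts. Most of these genes lay below CGA in level. The SD of CGA pooled within cultures was 0.89 on the log2 scale. Over the 4286 protein-coding genes whose mean reached 1000 normalised counts its median was 0.24, and 59 of them (1.38%) had a larger one. The libraries that stood apart for CGA also stood apart over all genes. Across genes, the correlation (Pearson's r of log2 values) was 0.984 between 2D replicates 1 and 2, but 0.943 to 0.945 between these and 2D replicate 3. It was 0.987 between 3D replicates 1 and 3, and 0.966 to 0.967 between these and 3D replicate 2. Between the cultures it was 0.928 to 0.935 for 2D replicate 3 with the 3D libraries. For 2D replicates 1 and 2 with the 3D libraries it was 0.877 to 0.891. The part of this difference between libraries in the level of CGA was not tested. Totals ran from 16567763 to 19954987 assigned reads.

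Genes were compared between the cultures with limma on log2(value + 1), over the 15598 genes whose mean reached 10 normalised counts. A gene is called higher or lower in 3D where its adjusted p (Benjamini-Hochberg over all genes tested) was under 0.05. By this rule 24.1% of all tested genes were called, 12.5% higher and 11.6% lower in 3D, and in 43.1% the libraries of the 2 cultures did not overlap. The median log2 difference over all tested genes was -0.02. With each library scaled to the same total it was 0.11, and the calls then split into 2416 higher and 1253 lower, against 1950 and 1816 here. When 2D replicate 3 was left out, limma called 7152 of 15706 genes, so a pass in that setting is common.

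The beta chains were present at a small fraction of the alpha chain. CGB2, CGB5, CGB7, CGB8 and LHB had rows, as did GPHA2, the alpha chain of thyrostimulin, a related hormone. CGB1, CGB3, FSHB, TSHB and GPHB5 had no row and were not analysed here. CGB5, a chorionic gonadotropin beta gene, had the most reads of these, with 17, 15 and 108 in 2D replicates 1 to 3 and 145, 63 and 153 in 3D replicates 1 to 3. In normalised counts it stood at 16.20, 16.01 and 111.0 in 2D and at 134.5, 61.1 and 157.9 in 3D. CGB5 was therefore lowest in 2D replicates 1 and 2, and 2D replicate 3 lay above 3D replicate 2, so the cultures overlapped.

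CGB5 averaged 47.7 ± 54.8 normalised counts in 2D and 118 ± 50.5 in 3D (SD, n = 3 each), a log2 difference of 1.78 (SE 0.73) that did not pass in limma (adjusted p = 0.10). Without 2D replicate 3 the log2 difference was 2.69 (limma, adjusted p = 0.0016), and over the 6 single omissions the adjusted p ran from 0.0016 to 0.29. Without 2D replicate 3 and 3D replicate 2 together the log2 difference was 3.10 (limma, adjusted p = 4.4e-06). In that setting 9046 of 15683 tested genes were called. The pair was chosen after seeing the data and holds the highest 2D and the lowest 3D value of CGB5, so omitting it does not test the cultures. Of the 75-base windows in CGB5 exons, 78.8% also occurred in another gene, mainly CGB8, so its count is uncertain and may hold or miss reads of the other CGB genes.

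CGB7 had 5, 19 and 18 reads in 2D and 21, 16 and 28 in 3D. It averaged 14.5 ± 8.49 normalised counts in 2D and 21.3 ± 6.88 in 3D (limma, adjusted p = 0.41), and the cultures overlapped. CGB8 had 3, 9 and 11 reads in 2D and 14, 16 and 23 in 3D, or 7.93 ± 4.47 and 17.4 ± 5.62 normalised counts (limma, adjusted p = 0.17). Its cultures did not overlap, as held for 43.1% of all tested genes, and it did not pass. CGB7 shared 52.9% and CGB8 73.9% of their windows with other genes, so these counts are uncertain too.

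LHB, CGB2 and GPHA2 were too low to test. LHB had 5, 10 and 4 reads in 2D and 7, 17 and 14 in 3D, and none of its windows occurred elsewhere. CGB2 had 1, 3 and 1 reads in 2D and 6, 0 and 1 in 3D, and shared 48.1% of its windows. GPHA2 had 0, 0 and 8 reads in 2D and 13, 5 and 5 in 3D. A library with 0 reads allows up to 3 at this depth. Of the tested chain genes other than CGA, 0 of 3 were called, against 24.1% over all tested genes.

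The excess of alpha over beta chain was large in every library. The reads of CGB2, CGB5, CGB7, CGB8 and LHB together came to 31, 56 and 142 in 2D replicates 1 to 3 and to 193, 112 and 219 in 3D replicates 1 to 3. Per beta chain read, CGA had 702, 284 and 425 reads in 2D and 220.5, 151.5 and 184 in 3D. Per length, the TPM of CGA was 278.5, 131.5 and 172 times the summed beta chain TPM in 2D and 87.6, 59.6 and 73.7 times in 3D. Every 3D ratio lay below every 2D ratio, while 43.1% of all tested genes separated the cultures as fully in either direction. This ratio carries no test, since CGA was chosen for its level, and the shared windows of the CGB genes leave the beta sum uncertain.

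**Figure D2:**
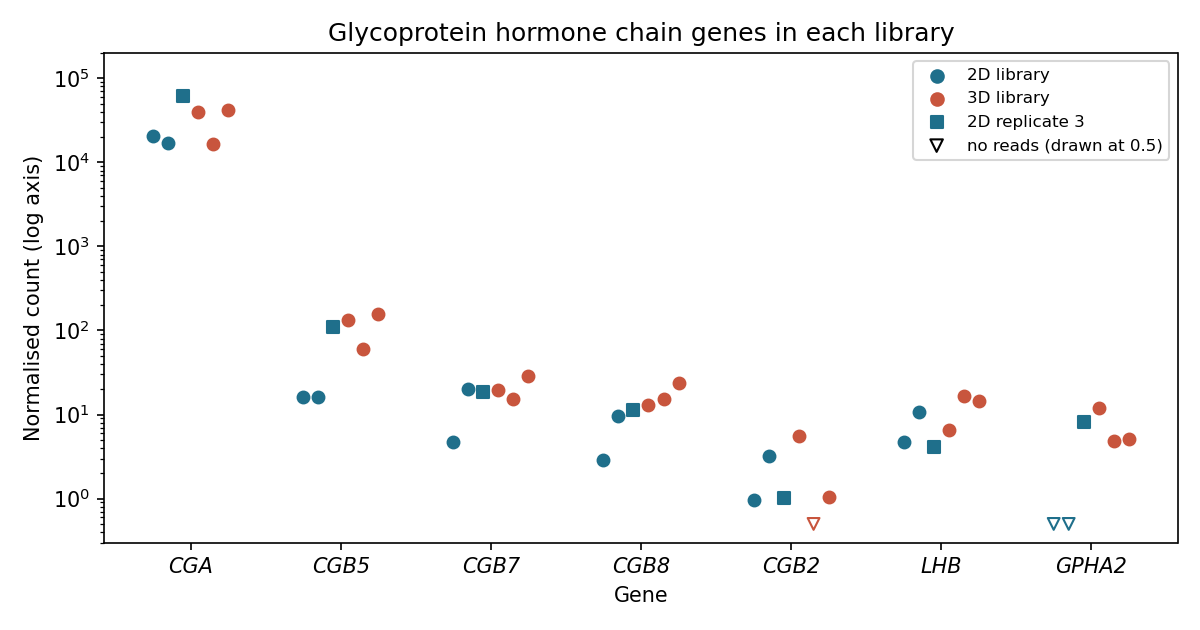
CGA and the alpha and beta chain genes with a row, in normalised counts on a log axis, 1 point per library, with open triangles drawn at 0.5 where a library had no reads. CGA is at 16453 or above in all 6 libraries, while CGB5, the highest of the others, reaches 157.9.

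Receptors for these hormones were at or near the limit of detection. LHCGR, the receptor of luteinizing hormone and chorionic gonadotropin, and FSHR had no row, nor had TRHR and KISS1R, and they were not analysed here. TSHR had 4 reads in 3D replicate 1 and 0 in the other 5 libraries. GNRHR, the pituitary receptor through which gonadotropin-releasing hormone drives gonadotropin genes, had 0, 0 and 1 reads in 2D and 4, 0 and 3 in 3D.

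Of the releasing hormones, GNRH1 had 7, 11 and 14 reads in 2D and 42, 18 and 32 in 3D. It averaged 10.9 ± 3.92 normalised counts in 2D and 29.8 ± 11.1 in 3D, a log2 difference of 1.35 that did not pass (limma, adjusted p = 0.074). It passed without 2D replicate 3 (limma, adjusted p = 0.033). GNRH2 had reads only in 3D replicates 1 and 3, with 4 and 5, and TRH only in 3D replicate 1, with 2. KISS1 encodes kisspeptin, the peptide upstream of gonadotropin-releasing hormone, and is also known as a metastasis suppressor gene in melanoma. It was the 1 called gene of the 2 tested in this list, against 24.1% called over all tested genes. A list with 2 tested genes is too small to describe by its share.

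KISS1 had 20.01, 22.4 and 93.6 normalised counts in 2D and 8.35, 3.88 and 0 in 3D, with every 3D library below every 2D library. Such a separation, in either direction, held for 43.1% of all tested genes, and the 3D values rest on 9, 4 and 0 reads. KISS1 was lower in 3D by limma (log2 difference -3.33, SE 0.92, adjusted p = 0.033). Omitting either of 2D replicates 1 and 2, or either of 3D replicates 2 and 3, ended the call, and over all 6 omissions the adjusted p ran from 0.041 to 0.098. With a pseudocount of 0.1 it was also lost (limma, adjusted p = 0.067).

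The route from cyclic AMP to the alpha chain promoter was expressed in both cultures, and more of its called genes were lower than higher in 3D, though not with every library scaled to the same total. Of 40 genes listed for cyclic AMP, PKA and CREB, 34 had a row and 30 were tested, and 2 were called higher and 8 lower, against 24.1% called in either direction over all genes. Their median log2 difference was -0.11. GNAS, the stimulatory G protein subunit through which gonadotropin receptors and many others raise cyclic AMP, averaged 32944 ± 5375 normalised counts in 2D and 34638 ± 1748 in 3D and did not pass (limma, adjusted p = 0.80). CREB1, named here outside the rule because its protein binds the element shown above, averaged 674 ± 76.1 in 2D and 661 ± 78.1 in 3D (limma, adjusted p = 0.92). ADCY9, an adenylyl cyclase, fell from 4445 ± 692 to 1572 ± 98.0 (log2 difference -1.49, limma, adjusted p = 0.0012). CRTC3, a CREB coactivator, fell from 5880 ± 526 to 2840 ± 44.7 (log2 difference -1.05, limma, adjusted p = 0.0036).

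The coactivator CREBBP fell from 5240 ± 2344 to 1822 ± 57.2 (limma, adjusted p = 0.012), and its close relative EP300 went from 3224 ± 1117 to 2103 ± 40.4 without passing (limma, adjusted p = 0.11), though it passed without 2D replicate 3 (limma, adjusted p = 0.034). Among the phosphodiesterases, which break cyclic AMP down, PDE3A was lower in 3D (6939 ± 840 and 3491 ± 1235, limma, adjusted p = 0.028), while PDE4A (546 ± 78.2 and 945 ± 133, limma, adjusted p = 0.021) and PDE4B (43.8 ± 15.7 and 96.2 ± 11.8, limma, adjusted p = 0.044) were higher. Without 2D replicates 1, 2 and 3 and 3D replicates 1, 2 and 3 in turn, 3, 4, 18, 3, 6 and 2 members passed in place of 10, and the calls of CREBBP, PDE3A, PDE4A and PDE4B were each lost in at least 1 of these. With every library scaled to the same total the split was 6 higher and 4 lower.

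Genes that cyclic AMP induces in many cells moved in both directions. Of 22 such genes 20 had a row and 19 were tested, with 4 higher and 5 lower in 3D and a median log2 difference of -0.15. This made 47.4% called, against 24.1% over all tested genes. No set test was run on this or any other list. NR4A3, an orphan nuclear receptor of the immediate early class, fell from 1166 ± 333 to 126 ± 9.22 (log2 difference -3.16, limma, adjusted p = 0.00037). BDNF, a neurotrophin, fell from 2218 ± 965 to 188 ± 6.67 (log2 difference -3.43, limma, adjusted p = 0.00070). DUSP1, a phosphatase of MAP kinases, fell from 19746 ± 14177 to 2108 ± 1444 (limma, adjusted p = 0.0062), and VGF, a neuroendocrine secreted protein, from 235 ± 10.5 to 109 ± 19.4 (limma, adjusted p = 0.012). STC1, a secreted glycoprotein, rose from 82.1 ± 14.04 to 833 ± 320 (log2 difference 3.25, limma, adjusted p = 0.00076).

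PER1, a clock gene, was higher in 3D (856 ± 202 and 1459 ± 273, limma, adjusted p = 0.040), as was PCK1, a gluconeogenic enzyme (52.7 ± 86.1 and 302 ± 128, limma, adjusted p = 0.037). PCK1 had 3, 3 and 148 reads in 2D and 453, 171 and 311 in 3D, the same division of libraries as in CGB5 with 2D replicate 3 apart from the other 2D libraries. FOS did not pass, with 1360, 1755 and 29289 normalised counts in 2D and 698, 5343 and 1691 in 3D (limma, adjusted p = 0.48). SIK1 did not pass either (2666 ± 488 and 2410 ± 509, limma, adjusted p = 0.63), and 83.0% of its windows were shared with SIK1B. Without 2D replicates 1, 2 and 3 and 3D replicates 1, 2 and 3 in turn, 4, 5, 13, 4, 6 and 5 members passed in place of 9, with VGF, PER1, PCK1 and PDE4B each lost in at least 1 of these. PCK1 was also lost in edgeR (adjusted p = 0.13) and in DESeq2 (adjusted p = 0.21), and PDE4B in edgeR (adjusted p = 0.050).

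Among factors known from alpha chain promoters in pituitary and placenta, the 7 called genes were lower in 3D, but this one-sided split did not hold in every setting. Of 34 listed, 31 had a row and 27 were tested, with a median log2 difference of -0.28. The share called was 25.9%, near the 24.1% over all tested genes. It was made up of 0 higher and 7 lower, against 12.5% higher and 11.6% lower over all genes. ATF3, a factor of the ATF/CREB family, fell from 2447 ± 247 to 292 ± 34.9 (log2 difference -3.06, limma, adjusted p = 0.00011). ESR1, the oestrogen receptor alpha, fell from 170 ± 89.6 to 22.1 ± 12.8 (limma, adjusted p = 0.0095). MSX1, a homeobox factor, fell from 704 ± 86.2 to 309 ± 13.5 (limma, adjusted p = 0.0041), and NR3C1, the glucocorticoid receptor, from 2902 ± 470 to 1367 ± 148 (limma, adjusted p = 0.0061). JUNB (3546 ± 2914 and 4248 ± 2506, limma, adjusted p = 0.64) and USF2 (2017 ± 282 and 1863 ± 149, limma, adjusted p = 0.66) did not pass. With every library scaled to the same total 1 was higher and 6 were lower, in DESeq2 1 and 8, and without the filter on low values 1 and 7. Without 2D replicate 3 it came to 2 higher against 8 lower, and to 8 against 9 when 3D replicate 2 was left out too.

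The genes that fold, pair and decorate the hormone chains were expressed in both cultures. Of 21 listed, 19 had a row and all 19 were tested, with 2 higher and 4 lower in 3D and a median log2 difference of -0.13. The share called was 31.6%, against 24.1% over all tested genes. The chaperone HSPA5 fell from 23083 ± 8621 to 10956 ± 671 (limma, adjusted p = 0.044), CANX, the lectin chaperone calnexin, from 1750 ± 150 to 1161 ± 143 (limma, adjusted p = 0.035), STT3A, a subunit of the oligosaccharyl transferase, from 3005 ± 443 to 2005 ± 110 (limma, adjusted p = 0.041), and the galactosyltransferase B4GALT1 from 18773 ± 5538 to 8222 ± 257 (limma, adjusted p = 0.015). CALR (11190 ± 2575 and 13490 ± 895, limma, adjusted p = 0.34) and HSP90B1 (15497 ± 729 and 14167 ± 1100, limma, adjusted p = 0.61), both chaperones of the endoplasmic reticulum, did not pass. CALR passed without 2D replicate 3 (limma, adjusted p = 0.048).

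B4GALNT4, which adds the N-acetylgalactosamine of sulphated pituitary hormone glycans, rose from 151 ± 91.4 to 505 ± 250 (limma, adjusted p = 0.039). Its normalised counts were 95.3, 100 and 256 in 2D and 594, 222 and 698 in 3D, with 3D replicate 2 below 2D replicate 3. The sialyltransferase ST3GAL6 rose from 28.7 ± 8.96 to 76.0 ± 10.1 (limma, adjusted p = 0.022). Without 2D replicates 1, 2 and 3 and 3D replicates 1, 2 and 3 in turn, 1, 0, 8, 0, 3 and 0 members of the folding and glycan list passed in place of 6, so each of its 6 calls was lost in at least 1 of these. With equal library totals 2 were higher and 1 lower.

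CGA is a marker of trophoblast and of pituitary. Most of the other markers listed for each had no row or were too low to test, while some were well expressed. Among 41 trophoblast genes 15 had no row and 11 were too low to test, and among 25 pituitary genes 11 had no row and 7 were too low. Of 41 trophoblast genes 26 had a row, and GCM1, CYP19A1, CSH1, CSH2 and HLA-G were among those without one. ERVW-1, the gene of syncytin-1, stayed at or below 4.64 normalised counts and ERVFRD-1 at or below 1.86. In contrast INSL4, the placental insulin-like gene, lay between 218 and 1941 normalised counts and PAPPA, a protease of pregnancy plasma, between 369 and 1491. The summed level of the list ran from 15627 to 30372 normalised counts in 2D and from 6871 to 8439 in 3D, with every 3D library below every 2D library. Such a separation, in either direction, held for 43.1% of all tested genes. KRT7, a keratin of many epithelia, and GDF15 carried much of it. Without these 2 genes, left out after the values were seen, the sum ran from 6905 to 9334 in 2D and from 5689 to 7079 in 3D. The cultures then overlapped, but only between 6905 and 7079.

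Among the 15 tested trophoblast genes 2 rose and 5 fell from 2D to 3D, and the median log2 difference was -0.33. Called genes thus made up 46.7% of those tested, against 24.1% over all tested genes. KRT7 fell from 11323 ± 5416 to 906 ± 125 (log2 difference -3.51, limma, adjusted p = 0.00083) and XAGE2, a cancer and placenta antigen, from 1013 ± 108 to 42.4 ± 11.2 (log2 difference -4.57, limma, adjusted p = 0.00011). The pregnancy-specific glycoprotein gene PSG4 fell from 126 ± 36.1 to 2.57 ± 3.68 (limma, adjusted p = 0.0020). PSG5 had 92 reads summed over 2D against 1 over 3D, for a ratio of 95.7 (exact 95% binomial interval 16.8 to 3820), and was lower by limma (adjusted p = 0.0020). That interval pools the reads of each culture and covers counting error only, not the spread between libraries. HSD3B1, the placental 3-beta-hydroxysteroid dehydrogenase, had 0 reads in 2D and 73 in 3D, at least 23.4-fold higher against a floor of 3 reads summed over 2D (limma, adjusted p = 0.0053). PGF, placental growth factor, rose from 28.5 ± 30.7 to 245 ± 209 (limma, adjusted p = 0.021).

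SDC1 (2836 ± 545 and 3035 ± 280, limma, adjusted p = 0.69) and TFAP2C (1727 ± 226 and 1367 ± 25.7, limma, adjusted p = 0.16) did not pass. GDF15 was lower in 3D, and its values are given with the hormones. The calls of PGF and GDF15 were each lost without at least 1 single library, and without 3D replicate 3 the list had 4 calls in place of 7. Many genes of this list are also made by other tissues, and CGB5 and CGB8 belong to it as well as to the chains.

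Of 25 pituitary genes 14 had a row, and POU1F1, NR5A1, GH1, PRL and CHGA were among those without one. POMC had reads in 3D replicate 2 only, at 1.94 normalised counts. The summed level ran from 2789 to 3602 normalised counts in 2D and from 1630 to 2131 in 3D, and most of it was PITX1, a homeobox factor of pituitary and hindlimb. PITX1 was the 1 called gene of 7 tested (14.3%, against 24.1% over all tested genes). It fell from 2692 ± 444 to 1486 ± 172 (limma, adjusted p = 0.014), and omitting 2D replicate 1 or 3D replicate 1 ended this call. LHX4 (191 ± 55.9 and 99.8 ± 45.6, limma, adjusted p = 0.11) and PCSK1 (236 ± 11.9 and 148 ± 51.0, limma, adjusted p = 0.10) did not pass, and 27.3% of the LHX4 windows were shared with another gene. The part of trophoblast or pituitary programmes in the level of CGA was not tested.

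The labelled cell type was checked in the same way. All 16 melanocyte and melanoma genes listed had a row, but SOX10 reached 37.0 normalised counts at most, TYR 33.9, MLANA 17.5, S100B 13.4 and PAX3 6.17, in each case in 2D replicate 3. These 5 markers were thus near 0 in libraries labelled as a melanoma line, while others of the list, MITF and PMEL among them, were well detected. The summed level of the list ran from 8272 to 9319 in 2D and from 5131 to 6092 in 3D. In this list 8 of the 16 genes were too low to test. Of 8 genes tested 0 were higher and 4 lower, with a median log2 difference of -0.82. This compares with 24.1% called over all tested genes, 12.5% higher and 11.6% lower. MITF, the master factor of the lineage, fell from 1131 ± 215 to 288 ± 19.02 (log2 difference -1.95, limma, adjusted p = 0.00077). DCT had 207 reads summed over 2D against 2 over 3D, for a ratio of 108.0 (exact 95% binomial interval 29.4 to 895), and was lower by limma (adjusted p = 0.0014). This interval too covers counting error only, not the spread between libraries.

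MCAM (3600 ± 811 and 2132 ± 376, limma, adjusted p = 0.042) and ERBB3 (1446 ± 91.1 and 833 ± 244, limma, adjusted p = 0.036) were lower in 3D. PMEL, a melanosome protein, had 323, 227 and 753 normalised counts in 2D and 1215, 620 and 1377 in 3D, and its log2 difference of 1.41 did not pass (limma, adjusted p = 0.053), though it passed without 2D replicate 3 (limma, adjusted p = 0.0024) or 3D replicate 2 (limma, adjusted p = 0.044). TFAP2A (1255 ± 484 and 641 ± 247, limma, adjusted p = 0.078) did not pass. The calls of MCAM and ERBB3 were lost without at least 1 single library, and omitting either of 2D replicates 1 and 2, or either of 3D replicates 1 and 3, left the list with 2 calls in place of 4. With equal library totals 1 was higher and 2 lower.

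Among peptide hormone genes CGA was the highest per length in all 6 libraries. Of 55 other hormone genes listed, 33 had a row, and 0 of the 33 exceeded CGA in TPM in any library. The next gene was GDF15, a stress-induced hormone of the TGF-beta family, in 2D replicates 1 and 2, at 691 and 633 TPM, so that CGA stood 2.54 and 2.51 times above it. In 2D replicate 3 the next was INSL4, a placental insulin-like gene, at 200.5 TPM, with CGA 27.3 times above it. In 3D replicates 1, 2 and 3 the next were ADM, the gene of adrenomedullin, at 129 TPM, INSL4 at 118 and ADM at 133, with CGA 26.4, 11.7 and 25.3 times above them.

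Set against the TPM of the 33 others summed, CGA made 0.865 and 0.790 of that sum in 2D replicates 1 and 2 and 9.86 times it in 2D replicate 3. In 3D replicates 1, 2 and 3 it made 6.57, 2.93 and 6.70 times the sum. CGA was therefore below the sum of the others only in 2D replicates 1 and 2, where GDF15, STC2 and INHBE were high.

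**Figure D3:**
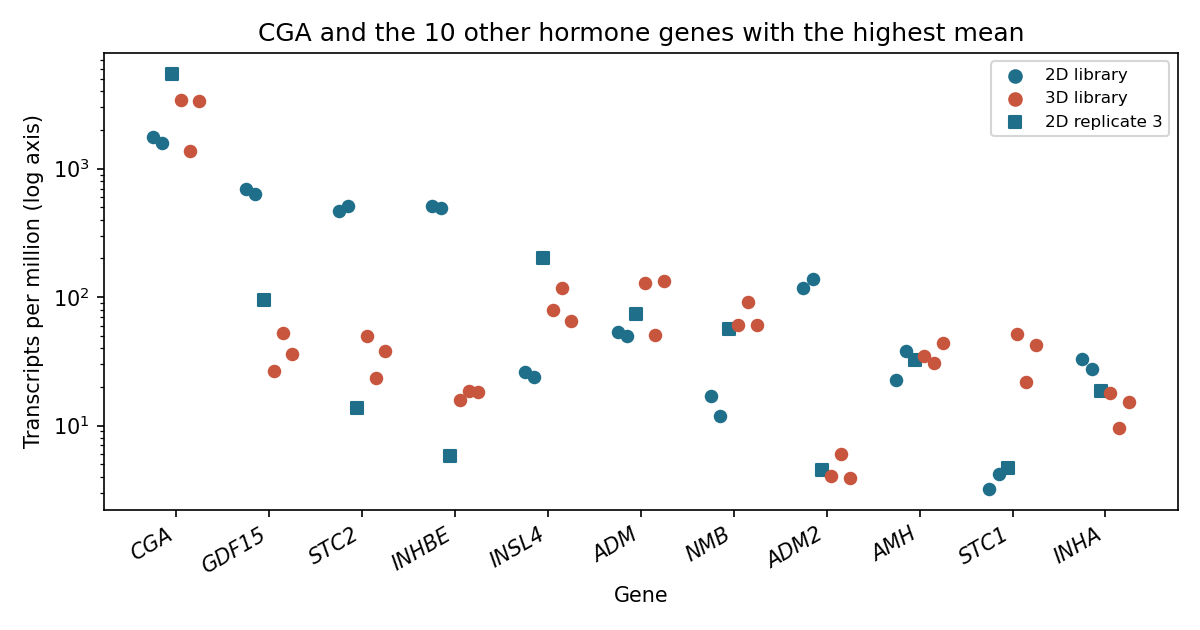
TPM of CGA and of the 10 other peptide hormone genes with the highest mean in each library, on a log axis, with 2D replicate 3 as squares. CGA is the highest in all 6 libraries, from 1379 to 5477 TPM, and GDF15 comes nearest in 2D replicates 1 and 2.

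Among the 19 tested genes of other hormones 4 rose and 3 fell from 2D to 3D, with a median log2 difference of -0.46. That was 36.8% called, against 24.1% over all tested genes. GDF15 had 7466, 6187 and 983 normalised counts in 2D and 279, 577 and 408 in 3D, and was lower (log2 difference -3.14, limma, adjusted p = 0.015). INHBB, an activin and inhibin beta subunit, fell from 172 ± 33.5 to 18.6 ± 5.91 (log2 difference -3.16, limma, adjusted p = 0.00096), and INHBA, the other main beta subunit, from 126 ± 70.3 to 15.5 ± 9.80 (limma, adjusted p = 0.017). STC1 rose, as given above. NMB, the gene of neuromedin B, rose from 145 ± 124 to 381 ± 97.2 (limma, adjusted p = 0.047), UCN2, the gene of urocortin 2, from 7.53 ± 2.49 to 33.1 ± 20.9 (limma, adjusted p = 0.037), and INSL3, an insulin-like hormone of the gonads, from 8.12 ± 3.72 to 33.3 ± 15.3 (limma, adjusted p = 0.037).

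STC2 had 14901, 14636 and 418 normalised counts in 2D and 1543, 746 and 1265 in 3D and did not pass (limma, adjusted p = 0.24). INHBE, a further inhibin beta subunit gene, had 8053, 6976 and 86.4 in 2D and 242, 292 and 299 in 3D and did not pass (limma, adjusted p = 0.21). In both genes 2D replicate 3 lay below every 3D library, and both passed without it (limma, adjusted p = 4.6e-05 and 7.8e-06). Without 2D replicates 1, 2 and 3 and 3D replicates 1, 2 and 3 in turn, 2, 3, 15, 3, 7 and 2 members passed in place of 7, and the calls of GDF15, INHBA, NMB, UCN2 and INSL3 were each lost in at least 1 of these. In edgeR INHBE passed (adjusted p = 0.036) and NMB did not (adjusted p = 0.080), and in DESeq2 STC2 passed (adjusted p = 0.038) as did INHBE (adjusted p = 0.0095).

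**Figure D4:**
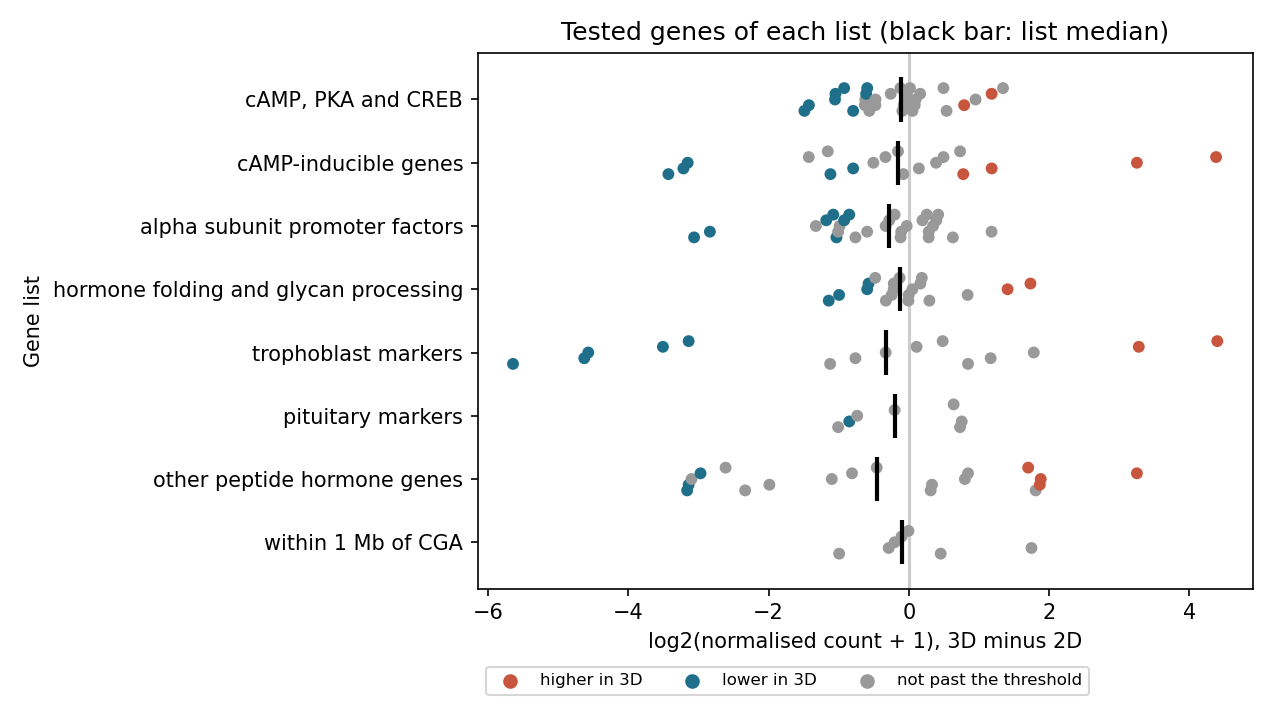
Log2 difference, 3D minus 2D, of each tested gene in 8 lists, 1 point per gene, coloured where called, with a black bar at each list's median. Called genes of the promoter factor list lie below 0, while those of the cyclic AMP-inducible list lie on both sides.

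The tested genes around CGA were few, and with all 6 libraries limma called none of them. Within 1 Mb of CGA 14 genes had a row and 7 were tested, with 0 called, and within 2 Mb 0 of 14 were called. Over all tested genes 24.1% were called, and counts this small do not set the region apart. Downstream of CGA, RN7SKP209 at 2.0 kb and ENSG00000217769 at 188.1 kb were too low to test, as was the antisense gene ENSG00000272008 55.8 kb upstream. ZNF292, the nearest tested gene, 57.4 kb away, averaged 511 ± 64.7 normalised counts in 2D and 520 ± 150 in 3D (limma, adjusted p = 0.99). AKIRIN2, named here after its values were seen, averaged 1023 ± 446 in 2D and 475 ± 54.5 in 3D (limma, adjusted p = 0.064). It passed in edgeR (adjusted p = 0.049), in DESeq2 (adjusted p = 0.012) and without 2D replicate 3 (limma, adjusted p = 0.00034). AKIRIN2 had the highest mean of the 7 tested neighbours, all of them far below CGA.

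The 10 protein-coding genes whose pattern over the 6 libraries was most like that of CGA were taken by the distance between log2(value + 1) values centred on each gene's mean, among 12712 genes. The 9 reported here were FAM111B, HSPA2, NR4A2, SEMA3F, LHX6, COL8A2, RAD54L, GFY and STOX1, at distances from 0.227 to 0.682, and they carry no test, since the pattern chose them. FAM111B, a protease gene of cycling cells, had 351, 324.5 and 1041 normalised counts in 2D and 613, 287 and 677 in 3D, with the same 3 high libraries as CGA. NR4A2, an orphan nuclear receptor that is on the cyclic AMP-inducible list, had 758, 924 and 2974 in 2D and 1523, 733 and 1583 in 3D. HSPA2, a heat shock protein gene, had 921, 757 and 2394 in 2D and 1414, 805 and 1397 in 3D.

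Over these 6 libraries Pearson's r with CGA lay between 0.949 and 0.995 for the 9, and 148 of the 12712 genes (1.16%) reached 0.9 or more. The 6 points share their libraries, so these values describe the pattern only. Ranking by Pearson's r in place of the distance kept 3 of the 9 genes, and a pseudocount of 10 kept 7. CGB5 was not among the most like, at a distance of 2.22 and rank 8121 with an r of 0.768. Of the 9 genes 7 were in the promoter table, and 0 of these 7 held TGACGTCA, against 1.65% of all promoters. With a share this low, 0 of 7 does not set these genes apart. FAM111B and NR4A2 were not in the promoter table.

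**Figure D5:**
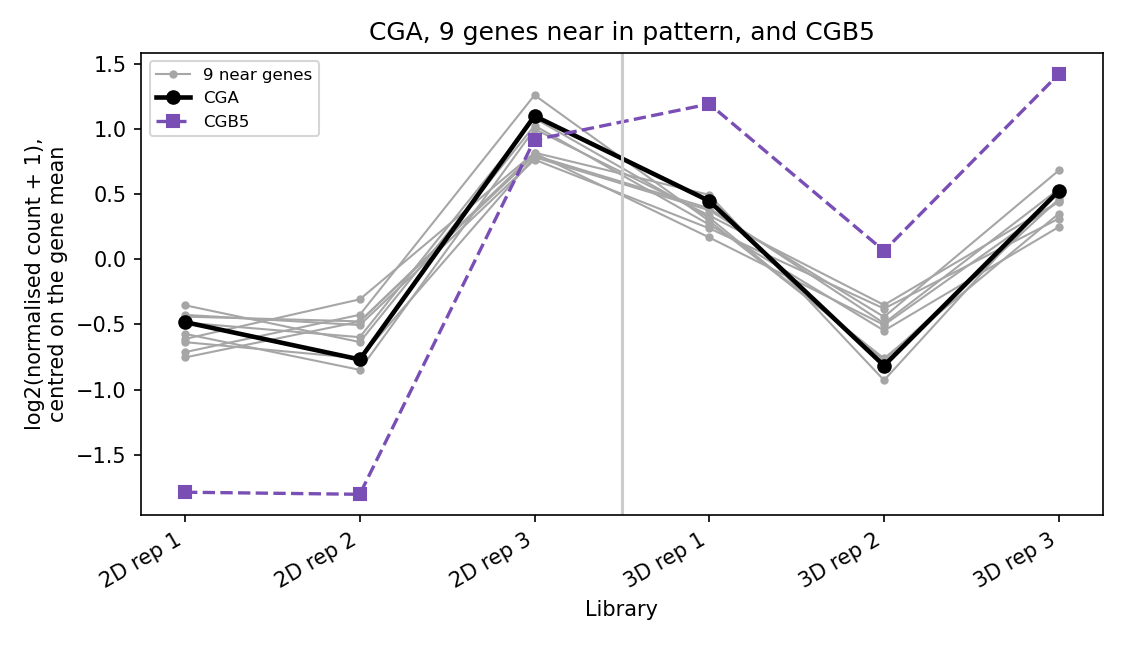
Log2(value + 1) centred on each gene's mean in the 6 libraries, for CGA (black), 9 of the 10 protein-coding genes most like it (grey) and CGB5 (dashed). CGA and these 9 genes peak at 2D replicate 3 and fall at 3D replicate 2.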

How the data were processed

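Poly(A) RNA of 3 adherent and 3 sphere libraries was made into TruSeq RNA (v2) libraries and run on a NovaSeq, per the labels' protocols. This kit does not mark strand. The submitters' processing notes name GRCh38/hg38, HISAT2, DESeq2 and featureCounts 1.5.0, with the annotation and other versions not given in the sources used here. Each deposited value is a signal, the read count of a gene after the authors divided it by the size factor of its library. Values were whole multiples of 1 step per library, and 100% came out as whole reads within 0.01 of a read, with 16567763 to 19954987 reads per library. Another 6 columns were empty and not used.

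Group and replicate number came from the sample titles. Genes with a mean of at least 10 were tested on log2(value + 1) with limma 3.58.1 under R 4.3.3, with a trend, culture as the sole term, and a Benjamini-Hochberg threshold of 0.05. This scale understates the change of low genes. Errors are SDs over 3 libraries in normalised counts. Alternatives were the pseudocount, the filter, the scaling, the replicate block, leaving out libraries, and edgeR 4.0.16 (3657 genes called on the whole reads) and DESeq2 1.42.0. TPM, symbols and coordinates used GENCODE 29, and promoters came from RefSeq (GRCh38.p14). Tables were handled in Python 3.11.15 with pandas 2.3.3, and the fit was tested on simulated data.

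The gene and the lists were chosen with earlier results of these data known. Named were CGA, all chain and receptor genes with a row, up to 4 called members per direction and the 2 highest uncalled members of each other list, the nearest neighbours, and the 10 genes most like CGA, of which 1 is not reported here. POMC and the other markers quoted at low level were named from the lists to show that they were low.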

Additional observations from a re-analysis of the deposited data

How the results depend on the processing

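The CGA difference of 0.10 moved beyond the replicate SD only without 2D replicate 3 and 3D replicate 2 together (1.11), a setting added after seeing the data, and single omissions gave -0.26 to 0.68. Over all genes, single omissions gave 520 to 3573 higher and 657 to 3579 lower, and omitting that pair gave 4430 and 4616. Counts of calls under single omissions ran from 0 to 1 for the beta chains, 0 to 2 for receptors, 2 to 18 for cyclic AMP signalling, 4 to 13 for inducible genes, 5 to 10 for promoter factors, 0 to 8 for folding, 4 to 9 for trophoblast, 0 to 1 for pituitary, 2 to 6 for melanocyte, 2 to 15 for hormones and 0 to 1 within 1 Mb. Omitting the pair gave 1 beta chain, 2 receptor, 20 cyclic AMP signalling, 15 inducible, 17 promoter factor (8 higher, 9 lower), 10 folding, 17 hormone and 2 neighbouring calls, and moved the log2 differences of HSPA2 and NR4A2 from -0.02 and -0.08 to 0.75 and 0.89, while without 2D replicate 2 (HSPA2) or 1 (NR4A2) they stood at -0.35 and -0.46. Of 71 named genes tested 41 were called, and single omissions lost between 0 and 21 of these calls.

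No pairing by replicate number was seen. Deviations of same-numbered libraries correlated at -0.084, -0.139 and 0.045, and those of differently numbered ones between -0.096 and 0.176. With 3 libraries per culture this cannot exclude that same-numbered libraries were handled together, which the labels do not state. With the replicate block 3222 genes were called in place of 3766, and the beta chains had 1 call (CGB5, limma, adjusted p = 0.035), folding 3 and the neighbours 1 (AKIRIN2, limma, adjusted p = 0.043). Of the other settings, receptors had 0 calls with a pseudocount of 0.1 or a mean of at least 50, folding had 3 with equal library totals, pituitary had 2 and melanocyte 7 without the filter, and DESeq2 gave 7 melanocyte, 13 hormone and 1 neighbouring call, edgeR 1 neighbouring call. Pearson's r kept 3 of the 9 genes most like CGA. The causes were not tested. Depth limits the chains other than CGA, most of which had under 30 reads per library.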
